A study of Mus musculus with 6 samples.

Results

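The replication-dependent histone genes encode the linker histone H1 and the core histones H2A, H2B, H3 and H4. They were read on the arrays by 49 probes of 45 genes, out of 55371 probes used. A probe was a member if its RefSeq accession led to a current mouse symbol of the form H1f1 to H1f5, H2ac, H2bc, H3c or H4c with a number, or to H2aw, so that membership rested on names and on no measured value. The reference annotation holds 64 genes with such symbols. By class there were 5 H1, 14 H2A, 13 H2B, 7 H3 and 10 H4 probes. Chromosome 13 carries the genes of 40 probes, chromosome 3 those of 8, and chromosome 11 that of H2aw.

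The 6 single-color Agilent arrays fall into 3 groups of 2 arrays, 1 for each of 2 independent experiments. TEa cells are CD4+ T cells with a transgenic receptor (Vα2+Vβ6+), here CD45.2+ and given as C57BL/6 in background strain. They went into B6.SJL CD45.1+ mice on day -1, each mouse was given a heart transplant from a Balb/c donor on day 0, and the TEa cells were sorted from the spleen on day 6. The blockade group held Irf4-/- TEa cells from recipients injected on days 0, 3 and 5 with 200 µg of anti-PD-L1 and 200 µg of anti-CTLA-4, antibodies against an inhibitory ligand and an inhibitory receptor of T cell activation. The Irf4 KO IgG group held Irf4-/- TEa cells from recipients that got 400 µg of rat IgG on the same days. The WT IgG group held wild-type TEa cells from recipients labelled as rat IgG treated, with no dose stated. All 3 groups therefore shared the transgenic receptor, the cell transfer and the allogeneic heart, and no age or sex of the mice was given. The recipients' own CD45.1+ cells were intact, and only the sort separated them from the TEa cells.

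A dividing cell makes most of its histone protein in S phase, when each new stretch of DNA needs nucleosomes. H2A, H2B, H3 and H4 form the nucleosome core, and H1 sits on the DNA between cores. The mRNAs of these genes end in a stem-loop in place of a poly(A) tail, are stabilized by the stem-loop binding protein Slbp while DNA is copied, and are degraded when copying stops. Most of the genes lie in clusters as near-identical copies, so a probe can read several of them.

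To show the sequence in front of these genes, the promoter windows of 5 members are printed: in each class, the gene with the largest log2 fold change of blockade against Irf4 KO IgG. They were chosen by that fold change, so nothing was tested on them. Each window runs from 250 bases before to 50 bases after the annotated start, 300 bases in all, on the strand of the gene (RefSeq, GRCm38.p6). Capitals mark 4 motifs in either orientation: TATAAA (the TATA box), then CCAAT (the CCAAT box), the octamer ATTTGCAT, and also AAACACA, an element known from H1 promoters. The windows are H1f5 at chr13:21780576-21780875 (minus strand), H2ac4 at chr13:23750838-23751137 (plus strand), H2bc7 at chr13:23574158-23574457 (minus strand), H3c13 at chr3:96268404-96268703 (plus strand) and H4c12 at chr13:21750504-21750803 (minus strand).
H1f5: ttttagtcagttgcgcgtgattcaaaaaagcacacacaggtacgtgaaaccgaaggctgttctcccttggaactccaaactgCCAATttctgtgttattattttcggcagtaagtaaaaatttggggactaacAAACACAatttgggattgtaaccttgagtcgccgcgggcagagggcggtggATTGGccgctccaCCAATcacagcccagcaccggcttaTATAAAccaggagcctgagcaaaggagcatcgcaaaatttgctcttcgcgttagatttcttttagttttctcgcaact
H2ac4: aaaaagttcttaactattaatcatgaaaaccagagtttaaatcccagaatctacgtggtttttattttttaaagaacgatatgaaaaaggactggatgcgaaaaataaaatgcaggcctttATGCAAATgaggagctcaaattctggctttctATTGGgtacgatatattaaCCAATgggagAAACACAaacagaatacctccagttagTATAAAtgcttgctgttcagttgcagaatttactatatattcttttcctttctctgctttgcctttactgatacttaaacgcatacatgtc
H2bc7: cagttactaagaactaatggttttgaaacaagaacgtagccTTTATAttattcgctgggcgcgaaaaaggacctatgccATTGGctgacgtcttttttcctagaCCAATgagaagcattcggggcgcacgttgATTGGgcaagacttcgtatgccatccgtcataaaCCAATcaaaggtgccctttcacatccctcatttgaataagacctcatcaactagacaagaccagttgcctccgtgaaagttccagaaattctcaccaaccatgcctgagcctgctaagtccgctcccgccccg
H3c13: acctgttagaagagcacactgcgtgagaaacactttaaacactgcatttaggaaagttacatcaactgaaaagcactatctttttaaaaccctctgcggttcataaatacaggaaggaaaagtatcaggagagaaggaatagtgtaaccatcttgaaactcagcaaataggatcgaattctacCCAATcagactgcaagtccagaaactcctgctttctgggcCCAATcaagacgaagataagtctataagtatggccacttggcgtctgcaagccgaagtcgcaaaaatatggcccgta
H4c12: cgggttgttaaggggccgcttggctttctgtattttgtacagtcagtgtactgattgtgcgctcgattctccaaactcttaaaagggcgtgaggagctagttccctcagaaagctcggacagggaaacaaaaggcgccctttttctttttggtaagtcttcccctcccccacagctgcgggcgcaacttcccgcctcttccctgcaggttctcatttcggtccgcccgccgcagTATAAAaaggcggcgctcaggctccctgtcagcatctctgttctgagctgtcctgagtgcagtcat

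The H1f5 window held TATAAA 28 bases before the start and AAACACA 117 bases before it. AAACACA stood in 4 of the 5 H1 windows, between 112 and 122 bases before the start, and H1f1 had none. Promoter windows were at hand for 40 of the 45 member genes (41 windows, 1 gene having 2). TATAAA, at any place and in either orientation, was in 58.5% of the member windows, against 13.6% of all 32851 windows of the same length. A forward TATAAA 20 to 45 bases before the start stood in 10 of the 41 member windows. That count was not made over all windows. CCAAT was in 87.8%, against 37.4% of all windows. By class, CCAAT stood in every H1, H2A, H2B and H3 window and in 2 of 7 H4 windows, and the H4c12 window above has none. The octamer was in 24.4% of member windows, against 1.74% of all windows. It occurred in 5 of 14 H2A and 5 of 10 H2B windows and in no H1, H3 or H4 window. AAACACA was in 19.5% of member windows, against 7.18% of all. Windows of genes with nearby starts on opposite strands overlap, so 1 site can count for 2 genes, as the octamer of H2ac1 and H2bc1 does. A match says only that the letters are there.

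The arrays differed in ways that touch every comparison below. Probes called well above background made up 40.0% and 34.8% of the blockade arrays, 65.8% and 75.2% of the Irf4 KO IgG arrays, and 37.6% and 40.8% of the WT IgG arrays. Dim probes, those under the brightness minimum given next, had a median processed intensity of 3.76 and 4.69 with blockade, 29.4 and 48.9 in Irf4 KO IgG cells, and 5.04 and 4.69 in WT cells, highest in the Irf4 KO IgG group. Members were therefore tested only among the 10225 probes whose log2 intensity averaged 8 or more, which were quantile-normalized among themselves, and dim members are given as unscaled intensities. All 7 T cell markers, Cd3d, Cd3e and Cd4 among them, were well above background on all 6 arrays. Irf4 itself gave higher signal on the arrays labelled Irf4 KO: 1 probe read 2071 and 1703 with blockade, 2128 and 3073 in Irf4 KO IgG cells, and 673 and 1068 in WT cells. The other Irf4 probe read 218 and 163, 226 and 221, and 73.6 and 80.3 on the same arrays. Whether either probe lies in the deleted part of the gene was not analysed here, and directions below are those of the cells labelled Irf4 KO.

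Of the 49 members, 35 probes of 33 genes entered the fit: 5 H1, 12 H2A, 6 H2B, 4 H3 and 8 H4. All 35 were well above background on all 6 arrays, as were 10223 of the 10225 probes in the fit. Levels below are log2 of the normalized processed intensity, a value per probe that depends on the probe as well as on the RNA, so levels of different probes are not compared. Differences are log2 fold changes of the fit ± their standard error, unless written as n-fold. In these bulk samples, fewer cells in S phase and less histone mRNA per cell cannot be told apart. How fully the amplification copied mRNAs without a poly(A) tail was not analysed here, so the values may not stand for all histone mRNA. Arrays 1 and 2 of a group are the independent experiments, and 2 arrays a group limit the precision of every value.

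As a group, the histone probes stood highest on the blockade arrays and lowest on the Irf4 KO IgG arrays. Taking each probe's level minus its own mean over the 6 arrays, the median of the 35 probes was 0.81 and 1.12 with blockade, -1.34 and -0.60 in Irf4 KO IgG cells, and -0.08 and 0.13 in WT cells. The same median over all 10225 probes lay within 0.02 of 0 on every array. The 2 Irf4 KO IgG arrays were unlike in these genes: 33 of the 35 probes were higher on array 2, by a median of 0.63 on the log2 scale, whereas H1f2 and H1f4 were higher on array 1. Between the blockade arrays 32 of 35 probes were higher on array 2, by a median of 0.22, and between the WT arrays 32 of 35, by a median of 0.26.

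**Figure D1:**
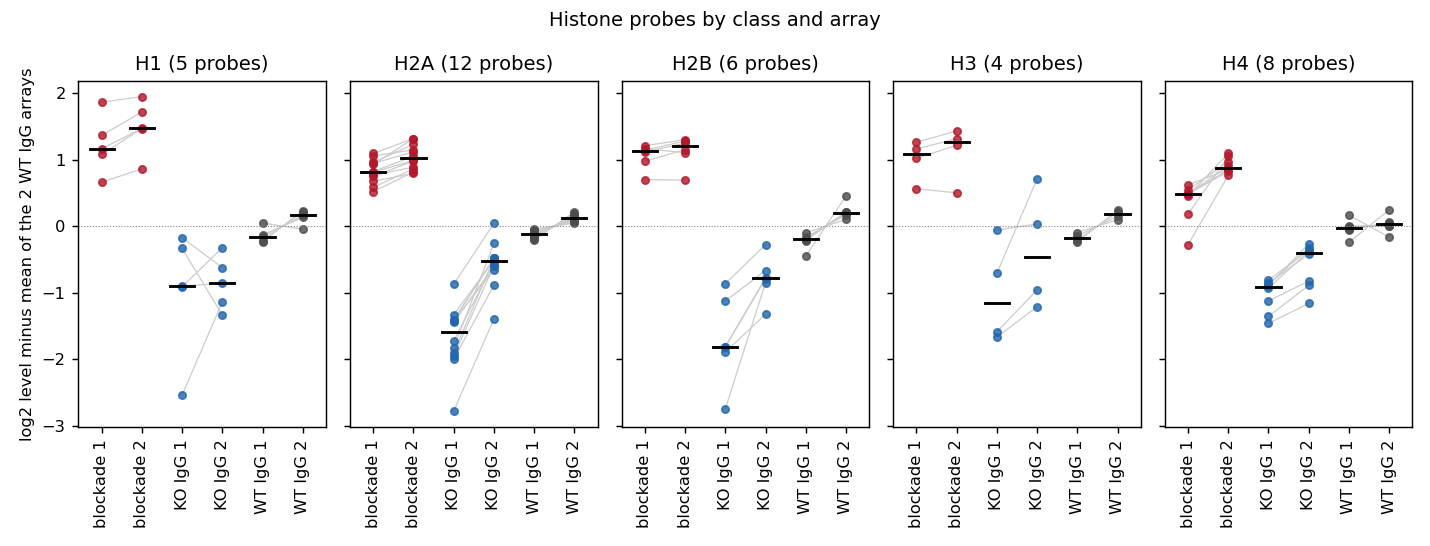
Levels of the 35 histone probes in the fit by class and array. The vertical axis is each probe's log2 level minus its mean on the 2 WT IgG arrays, each point is a probe, grey lines join a probe's arrays within a group, and black bars are class medians; in every class the median is above 0 on both blockade arrays and below 0 on both Irf4 KO IgG arrays.

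The first comparison, Irf4 KO IgG cells against WT IgG cells, addresses what loss of the transcription factor IRF4 does to alloreactive T cells. Of the 35 histone probes, 34 had a negative log2 fold change, with a median of -0.97 (a level of 0.509 of WT) and a range of -2.09 (H2ac4) to 0.00 (H3c11). Over all probes of the fit 52.4% were negative, and the median was -0.02. Only H2bc18 and H3c13 passed, both lower in Irf4 KO IgG cells, where 0.998% of all probes passed as lower (limma, Benjamini-Hochberg adjusted p under 0.05 over 10225 probes). The groups did not overlap for 31 probes, all lower in Irf4 KO IgG cells, against 29.2% of all probes that were lower without overlap. At an unadjusted p under 0.05, 28 probes were lower, against 12.8% of all. Log2 fold changes below -1 were found for 17 of the 35 and for 145, or 1.42%, of all probes. The 2 calls rest on the set of arrays: with an array left out the number of calls changed, among histone probes and among all probes. The median fold change was -0.60 without Irf4 KO IgG array 1 and -1.43 without array 2.

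The second comparison, blockade against IgG in recipients of Irf4 KO cells, asks what checkpoint blockade changes in those cells. Every one of the 35 histone probes had a positive log2 fold change, with a median of 1.84 (3.59-fold) and a range of 0.54 (H3c4) to 3.38 (H1f5). Of all probes 53.3% were positive, and their median was 0.03. By the same test 12 histone probes passed as higher and none as lower, where 0.44% of all probes passed as higher. H1f1, among the 12, reached the brightness minimum chiefly through its blockade arrays, so its call is given as a description. With a minimum of 7 its adjusted p was 0.0491, and a minimum of 9 left it out. The adjusted p of the 12 lay between 0.0370 and 0.0494, and that of the other 23 between 0.0513 and 0.177, so the threshold separated probes with like values. The groups did not overlap for any of the 35, against 34% of all probes that were higher without overlap, and 34 of the 35 were above 1, against 1.71% of all probes. At an unadjusted p under 0.05, 34 of the 35 were higher, against 15.6% of all. Among the 100 probes with the largest positive fold changes in the fit, 30 were histone members, and among the largest 20 there were 6. With an array left out the number of calls changed, among histone probes and among all probes, and the median histone fold change ran from 1.50 to 2.24. When the row of the array on the slide entered the fit as a block, 0 histone probes and 0 of all 10225 probes passed. Within slide row 1 all 35 differences were positive, with a median of 1.32, and within slide row 2 all 35 were positive, with a median of 2.39.

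The third comparison sets blockade-treated Irf4 KO cells against WT IgG cells. All 35 probes had a positive log2 fold change, where 50.1% of all probes were positive, with a median of 0.93 (1.91-fold) against 0.00 for all probes, and a range of 0.24 (H4c3) to 1.90 (H1f1). H1f1 alone passed, where 0.44% of all probes passed as higher. It reached the brightness minimum chiefly through its blockade arrays, so this call is given as a description. With a minimum of 7 in place of 8 the adjusted p of H1f1 was 0.100, and with a minimum of 9, which left H1f1 out, H1f3 alone passed (adjusted p 0.0460). The groups did not overlap for 34 probes, H4c3 being the exception, against 27.7% of all probes, and 17 of the 35 were above 1, against 2.08%. At an unadjusted p under 0.05, 25 were higher, against 9.89% of all probes. The call of H1f1 rests on the set of arrays: with an array left out the number of calls changed, among histone probes and among all probes. The median histone fold change then ran from 0.80 to 1.12. The 3 comparisons use the same 6 arrays in pairs of groups, so they are not independent of each other: the Irf4 KO IgG arrays enter the first and the second.

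**Figure D2:**
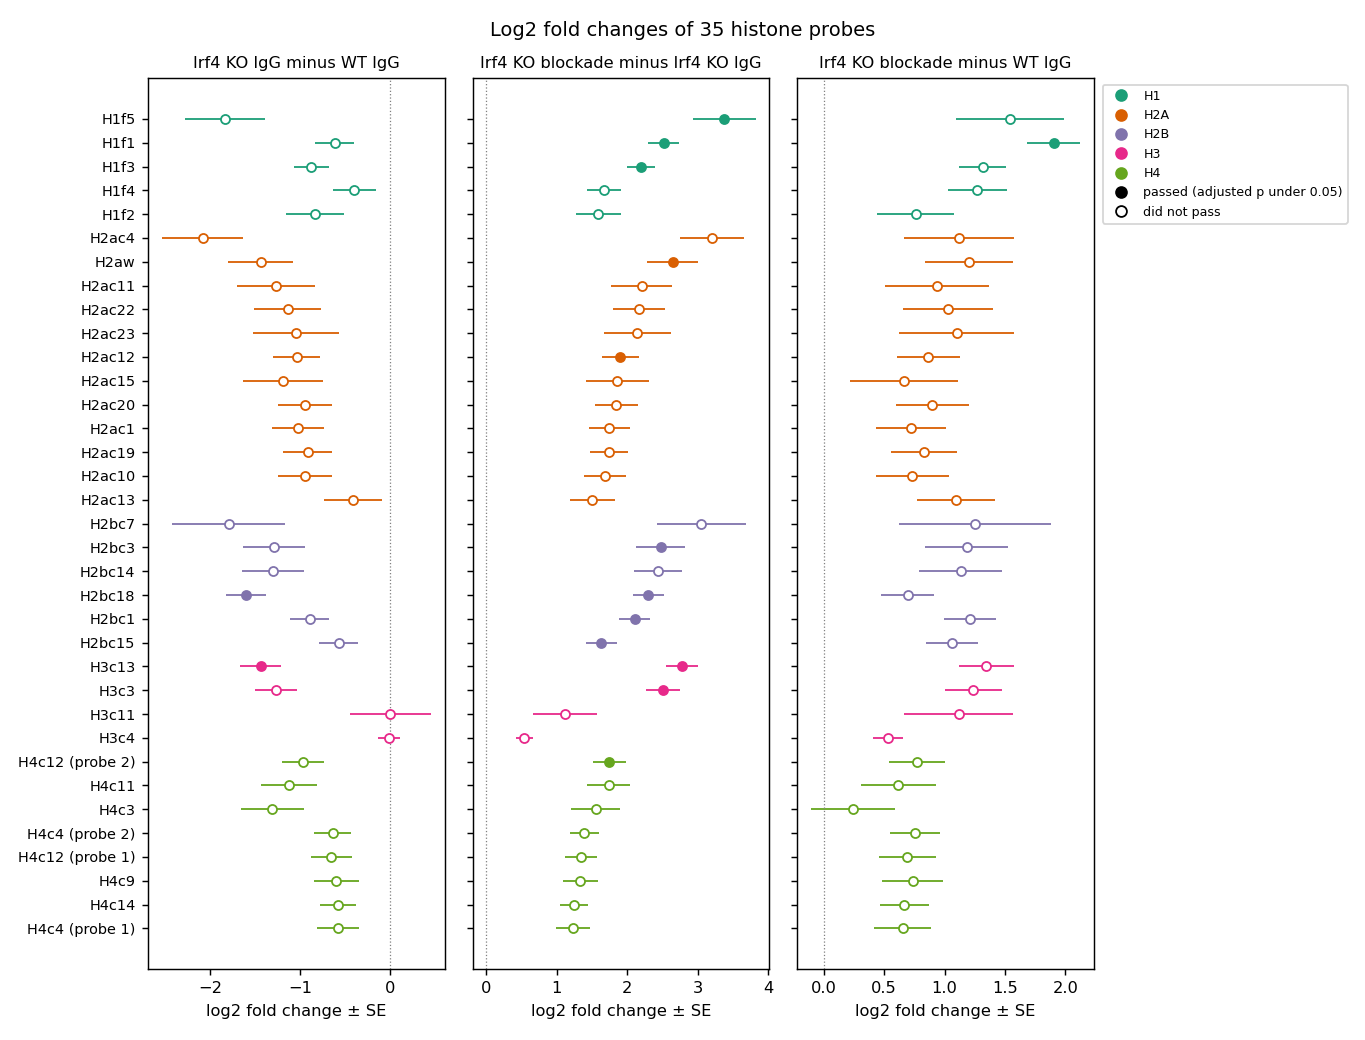
Log2 fold changes of the 35 histone probes in the 3 comparisons. Points are limma estimates, bars their standard errors, colors the histone class, filled points passed an adjusted p of 0.05; all 35 points lie above 0 for blockade against Irf4 KO IgG, with 12 filled, and H3c11 and H3c4 lie at 0 for Irf4 KO IgG against WT IgG.

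**Figure D3:**
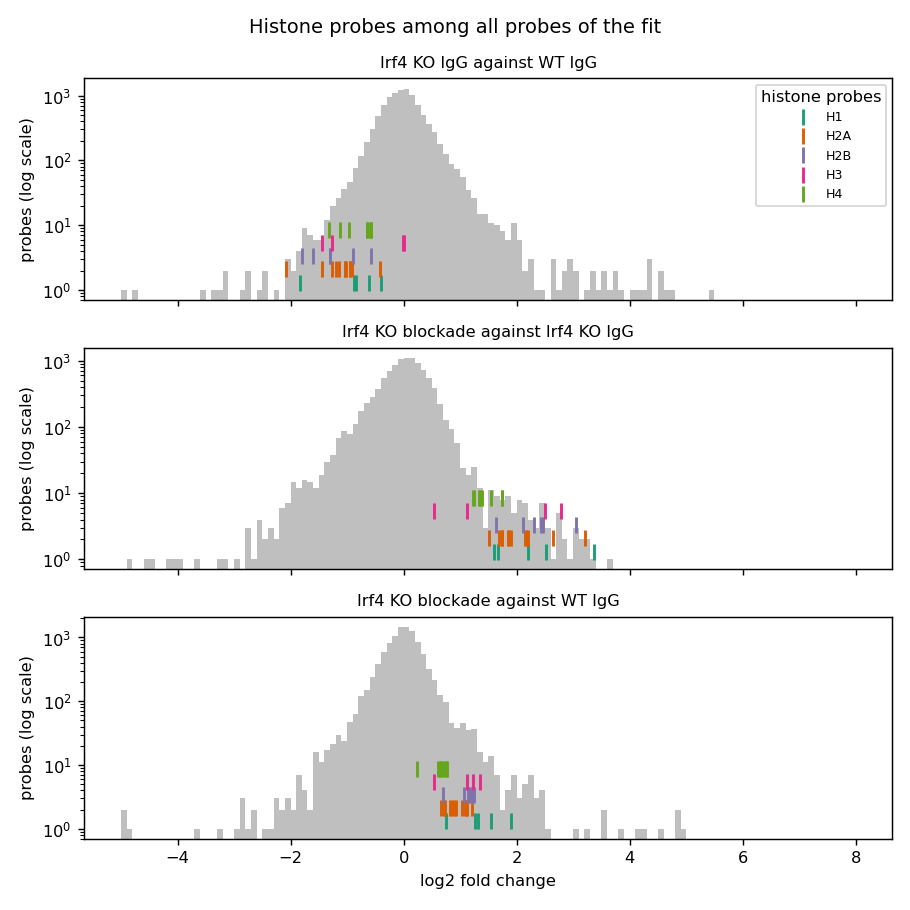
Histone probes within the distribution of log2 fold changes of all 10225 probes in the fit. Grey bars count all probes on a log axis (values beyond the axis ends are put in the last bars), colored ticks are histone probes by class and their height has no meaning; for blockade against Irf4 KO IgG, 34 of the 35 ticks lie above 1, as do 1.71% of all probes.

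Linker histone H1 compacts the fiber between nucleosomes, and 5 somatic subtypes, H1f1 to H1f5, made up this class. In blockade cells against Irf4 KO IgG cells H1f1, H1f3 and H1f5 passed as higher, and the class median was 2.19. H1f5 read 12.47 and 12.82 with blockade, 8.57 and 9.97 in Irf4 KO IgG cells, and 10.94 and 11.27 in WT cells. Its 3 groups do not overlap, and the Irf4 KO IgG arrays, which differ most from each other, are lowest. The log2 fold change was 3.38 with a standard error of 0.45 for blockade against Irf4 KO IgG (adjusted p 0.0475) and -1.84 ± 0.45 for Irf4 KO IgG against WT (adjusted p 0.0962). H1f3 read 10.96 and 11.26 with blockade, 8.89 and 8.94 in Irf4 KO IgG cells, and 9.56 and 10.03 in WT cells. Its fold change was 2.19 ± 0.19 for blockade against Irf4 KO IgG (adjusted p 0.0370), and the arrays of each group lie close together.

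H1f1 was the only histone probe to pass between blockade and WT cells. Its levels were 9.49 and 9.57 with blockade, 6.72 and 7.31 in Irf4 KO IgG cells, and 7.50 and 7.76 in WT cells. Both blockade arrays lie well above the other 4. The log2 fold change was 1.90 ± 0.22 against WT (3.74-fold, adjusted p 0.0337) and 2.52 ± 0.22 against Irf4 KO IgG (5.74-fold, adjusted p 0.0370). Its unscaled intensities were 666 and 534 with blockade, 106 and 298 in Irf4 KO IgG cells, and 145 and 248 in WT cells, so that H1f1 reached the minimum of the fit (256 on the linear scale) chiefly through its blockade arrays. Both calls of H1f1 are therefore given as a description. H1f4 showed the smallest H1 difference between Irf4 KO IgG and WT cells. It read 13.51 and 13.90 with blockade, 12.26 and 11.81 in Irf4 KO IgG cells, and 12.22 and 12.65 in WT cells, so that the Irf4 KO IgG and WT arrays overlap. Its fold change against Irf4 KO IgG was 1.67 ± 0.24 and did not pass (adjusted p 0.0515). H1f2 had a fold change of 1.59 and did not pass either (adjusted p 0.0721).

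H2A forms a dimer with H2B at the flank of the nucleosome core. For blockade against Irf4 KO IgG, 2 of the 12 H2A probes passed as higher, H2ac12 and H2aw, with a class median of 1.88. H2ac12 read 17.61 and 17.84 with blockade, 15.43 and 16.20 in Irf4 KO IgG cells, and 16.81 and 16.91 in WT cells. The groups stand apart, with blockade highest, and the fold change against Irf4 KO IgG was 1.90 ± 0.26 (adjusted p 0.0487). H2aw, the chromosome 11 gene, read 14.19 and 14.42 with blockade, 11.11 and 12.22 in Irf4 KO IgG cells, and 12.94 and 13.27 in WT cells. It was 6.25-fold higher with blockade than in Irf4 KO IgG cells, a log2 fold change of 2.64 ± 0.36 (adjusted p 0.0487).

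H2ac4 had the lowest fold change of all members between Irf4 KO IgG and WT cells. Its levels were 15.13 and 15.51 with blockade, 11.42 and 12.80 in Irf4 KO IgG cells, and 13.99 and 14.41 in WT cells. No group overlaps another, but the Irf4 KO IgG arrays differ by more than a log2 unit. The fold change was -2.09 ± 0.45 against WT (adjusted p 0.0785) and 3.21 ± 0.45 for blockade against Irf4 KO IgG (adjusted p 0.0513), and neither passed. H2ac13 had the H2A fold change nearest to 0, -0.42 ± 0.32 for Irf4 KO IgG against WT. It read 10.01 and 10.29 with blockade, 8.18 and 9.10 in Irf4 KO IgG cells, and 8.87 and 9.24 in WT cells, so Irf4 KO IgG and WT cells overlap.

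The other H2A probes had similar values. The 9 probes with a mean log2 intensity above 16, H2ac12 among them, had fold changes of -1.27 to -0.92 for Irf4 KO IgG against WT, 1.68 to 2.21 for blockade against Irf4 KO IgG, and 0.67 to 1.10 for blockade against WT. Their processed intensities on blockade array 1 ran from 159490 to 205122, and no spot on any array was marked as saturated. Many H2A genes are near-identical copies, so these probes may read the same pool of transcripts, and single genes among them are uncertain. How alike the 9 genes, H2ac1 among them, are in sequence was not analysed here.

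H2B is the partner of H2A in the dimer. All 6 H2B probes in the fit had positive fold changes for blockade against Irf4 KO IgG, with a median of 2.37, and 4 passed as higher: H2bc1, H2bc3, H2bc15 and H2bc18. H2bc18 read 10.89 and 10.89 with blockade, 8.30 and 8.87 in Irf4 KO IgG cells, and 10.03 and 10.36 in WT cells. The Irf4 KO IgG arrays lie far below the other 4. Its fold change was -1.61 ± 0.22 for Irf4 KO IgG against WT (adjusted p 0.0393) and 2.30 ± 0.22 for blockade against Irf4 KO IgG (adjusted p 0.0372), so it passed in both. For blockade against WT it was 0.69 ± 0.22 and did not pass (adjusted p 0.186).

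H2bc3 had levels of 11.93 and 12.06 with blockade, 9.00 and 10.03 in Irf4 KO IgG cells, and 10.62 and 11.00 in WT cells, and was 2.48 ± 0.34 higher with blockade than in Irf4 KO IgG cells (adjusted p 0.0494). H2bc1 had levels of 11.15 and 11.28, 8.88 and 9.34, and 9.80 and 10.21 in the same 3 groups, and was 2.11 ± 0.21 higher (adjusted p 0.0412). H2bc15 read 10.65 and 10.83 with blockade, 8.81 and 9.40 in Irf4 KO IgG cells, and 9.58 and 9.78 in WT cells, and was 1.63 ± 0.22 higher (adjusted p 0.0475). For each of these genes the groups do not overlap and blockade is highest. H2bc14 read 12.03 and 11.97 with blockade, 9.05 and 10.07 in Irf4 KO IgG cells, and 10.65 and 11.08 in WT cells. Its fold change of 2.44 ± 0.35 did not pass (adjusted p 0.0513), although it is close to that of H2bc3. H2bc7 varied most: it read 10.28 and 10.37 with blockade, 6.33 and 8.23 in Irf4 KO IgG cells, and 8.62 and 9.52 in WT cells. With a standard error of 0.63, the widest among the members, its fold change of 3.05 did not pass (adjusted p 0.0733).

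Many H2A and H2B genes lie head to head and share the stretch between their starts. Among the members with a promoter window, 5 such pairs had starts within 500 bases, and for 2 of them both genes were in the fit. H2ac15 and H2bc15, with starts 164 bases apart, had fold changes of 1.86 and 1.63 for blockade against Irf4 KO IgG and -1.19 and -0.57 for Irf4 KO IgG against WT. H2bc1 and H2ac1, 281 bases apart, had 2.11 and 1.75, and -0.90 and -1.02. H2ac15 and H2ac1 are among the 9 bright H2A probes that may read the same pool of transcripts. Their values may therefore not be those of the single genes in these pairs. In the other pairs 1 partner was below the brightness minimum: H2ac7 and H2bc23 beside H2bc7 and H2ac23, and H2bc22 beside H2ac22.

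H3 and H4 form the tetramer at the center of the core, and for blockade against Irf4 KO IgG the H3 members ran from 0.54 to 2.78. H3c3 and H3c13 passed as higher with blockade than in Irf4 KO IgG cells, while H3c4 and H3c11 had the smallest fold changes of all 35. H3c13 read 12.35 and 12.52 with blockade, 9.42 and 9.88 in Irf4 KO IgG cells, and 10.85 and 11.32 in WT cells. Each group stands apart from the others. The fold change was 2.78 ± 0.23 for blockade against Irf4 KO IgG (6.88-fold, adjusted p 0.0370) and -1.44 ± 0.23 for Irf4 KO IgG against WT (adjusted p 0.0468), which also passed. H3c3 read 13.76 and 13.92 with blockade, 11.02 and 11.65 in Irf4 KO IgG cells, and 12.46 and 12.75 in WT cells. It was 2.51 ± 0.24 higher with blockade than in Irf4 KO IgG cells (adjusted p 0.0370), and its -1.27 ± 0.24 against WT did not pass (adjusted p 0.0607).

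H3c4 hardly varied across the 6 arrays. It read 14.62 and 14.55 with blockade, 14.00 and 14.09 in Irf4 KO IgG cells, and 13.96 and 14.15 in WT cells. Irf4 KO IgG and WT cells overlap, with a fold change of -0.01 ± 0.12, while both blockade arrays lie above them by 0.54 ± 0.12 (Irf4 KO IgG, adjusted p 0.0789) and 0.53 ± 0.12 (WT, adjusted p 0.118). H3c11 read 9.09 and 9.29 with blockade, 7.36 and 8.79 in Irf4 KO IgG cells, and 7.86 and 8.28 in WT cells. The 2 Irf4 KO IgG arrays lie on either side of the WT arrays, and the fold change of 0.00 ± 0.45 was below 0 under 10 of 21 other settings. For blockade against Irf4 KO IgG it was 1.11 ± 0.45 (adjusted p 0.177). How H3c4 differs from H3c3 in its response was not tested.

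The 8 H4 probes had class medians of 1.37 for blockade against Irf4 KO IgG, -0.65 for Irf4 KO IgG against WT and 0.68 for blockade against WT. Differences between classes were not tested. A single H4 probe passed for blockade against Irf4 KO IgG, the second of 2 H4c12 probes. It read 12.71 and 13.35 with blockade, 11.14 and 11.43 in Irf4 KO IgG cells, and 12.24 and 12.28 in WT cells. The groups stand apart and the fold change was 1.75 ± 0.23 (adjusted p 0.0475). The first H4c12 probe gave 1.35 ± 0.23 and did not pass (adjusted p 0.0635). Both H4c4 probes were alike, at 1.23 ± 0.24 and 1.40 ± 0.21 (adjusted p 0.0712 and 0.0534).

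The first H4c4 probe read 16.47 and 16.81 with blockade, 15.10 and 15.72 in Irf4 KO IgG cells, and 15.93 and 16.04 in WT cells, and had the H4 fold change nearest to 0 against WT, -0.58 ± 0.24. H4c3 had the lowest, -1.31 ± 0.35 (adjusted p 0.114). Its levels were 9.32 and 10.36 with blockade, 8.14 and 8.44 in Irf4 KO IgG cells, and 9.76 and 9.43 in WT cells. Here blockade array 1 lies below both WT arrays and array 2 above them, so blockade and WT cells overlap. H4c9, H4c11 and H4c14 had fold changes of 1.34, 1.74 and 1.25 for blockade against Irf4 KO IgG, none of which passed.

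By place in the genome, the 29 chromosome 13 probes in the fit had a median fold change of 1.75 for blockade against Irf4 KO IgG and -0.97 for Irf4 KO IgG against WT. The 5 chromosome 3 probes had medians of 1.84 and -0.95. Among them, H2ac19 and H2ac20 belong to the bright H2A probes that may also read near-identical copies on chromosome 13. The medians therefore do not cleanly separate the chromosomes. H2aw, alone on chromosome 11, had 2.64 and -1.44.

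The 14 members below the brightness minimum did not share one pattern. Their intensities are unscaled, so differences between arrays in the overall brightness of dim probes remain in them. Of all 45146 dim probes, 63.1% had both Irf4 KO IgG arrays above both WT arrays and 69.5% had both blockade arrays below both Irf4 KO IgG arrays. Of the 14, 7 were well above background on all 6 arrays, 5 on some and 2, H2ac7 and H2bc6, on none. Just under the minimum lay both probes of H2bc21, at mean log2 intensities of 7.94 and 7.84, and H4c17 at 7.82, and just above it H1f1 at 8.09, H3c11 at 8.46 and H4c9 at 8.71. The first H2bc21 probe had intensities of 227 and 183 with blockade, 252 and 362 in Irf4 KO IgG cells, and 235 and 251 in WT cells. The second had 248 and 174, 216 and 323, and 185 and 264 on the same arrays. Neither shows the blockade-high order of the brighter members. H4c17 had 238 and 322 with blockade, 122 and 271 in Irf4 KO IgG cells, and 162 and 328 in WT cells, and its groups overlap.

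H3c7 had intensities of 276 and 367 with blockade, 47.1 and 126 in Irf4 KO IgG cells, and 141 and 234 in WT cells, in the order of the brighter members. H2bc22 read 3.26 and 4.31 with blockade, 71.8 and 148 in Irf4 KO IgG cells, and 4.38 and 5.88 in WT cells, and was well above background on the Irf4 KO IgG arrays alone. H2bc23 read 3.04 and 4.02, 19.7 and 34.0, and 4.05 and 3.53 in the same groups. H2bc22 and H2bc23 run opposite to the brighter members, as do most dim probes of the arrays. H2bc4 read 102 and 75.3 with blockade, 84.4 and 268 in Irf4 KO IgG cells, and 33.3 and 52.4 in WT cells. The second H2bc3 probe and H3c1, above background on all 6 arrays, and H3c8, H2ac21 and H4c8, above it on some, read between 13.3 and 146 across the 6 arrays. Without overlap, 3 of the 14 were lower and 6 higher in Irf4 KO IgG than in WT cells, where 63.1% of all dim probes were higher. Likewise, 4 were lower and 3 higher with blockade than in Irf4 KO IgG cells, where 69.5% of all dim probes were lower. The shares of all dim probes in the other directions were not counted, so those counts are given as a description.

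**Figure D4:**
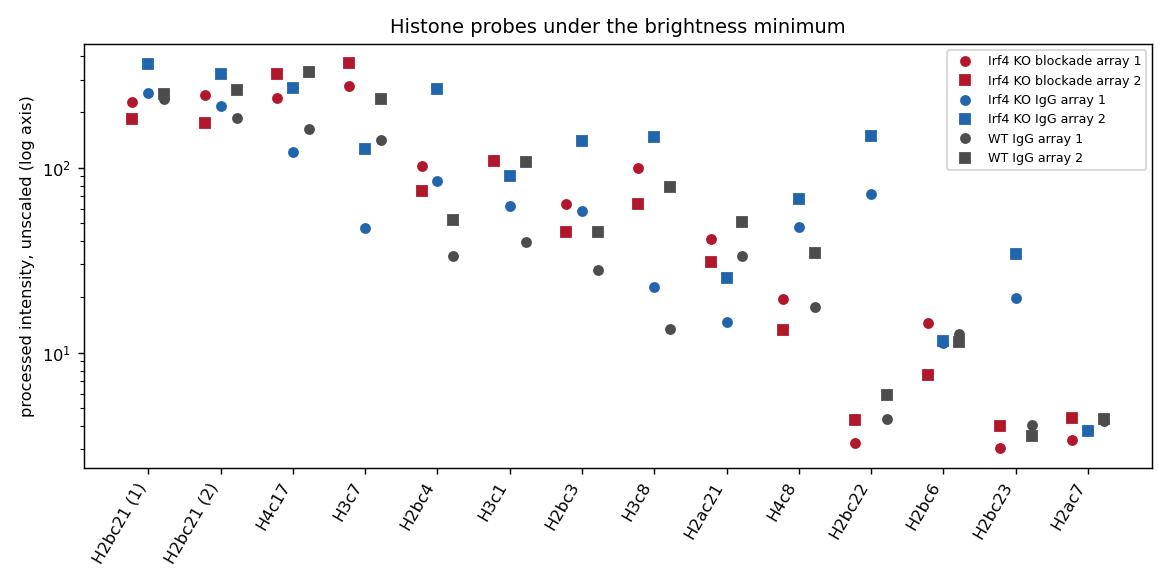
Unscaled processed intensity of the 14 histone probes below the brightness minimum, on a log axis. Symbols are arrays, with blockade, Irf4 KO IgG and WT IgG from left to right within each probe; H2bc22 and H2bc23 are brightest on the 2 Irf4 KO IgG arrays, and H3c7 is dimmest there.

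Lists of genes that act beside the histones were read in the same fit. The S phase list held 25 genes of DNA copying and nucleotide supply, of which 20 were in the fit. For blockade against Irf4 KO IgG all 20 had a positive fold change, with a median of 1.10, and 1 passed, Tyms, the thymidylate synthase. Tyms read 11.07 and 11.12 with blockade, 8.78 and 9.44 in Irf4 KO IgG cells, and 9.84 and 10.26 in WT cells, and its fold change was 1.98 ± 0.25 (adjusted p 0.0475). For Irf4 KO IgG against WT 13 of the 20 were negative, with a median of -0.22, and none passed, the lowest adjusted p being that of Ccne1, cyclin E, at -0.83 (0.0707). For blockade against WT all 20 were positive, with a median of 0.93, and none passed, the lowest adjusted p being 0.0540 for Gins2, a part of the replicative helicase, at 1.33. At an unadjusted p under 0.05, 8, 14 and 10 of the 20 differed in Irf4 KO IgG against WT, blockade against Irf4 KO IgG and blockade against WT, where 23.3%, 28.6% and 19% of all probes did.

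On the arrays the S phase list had a median level, against each probe's own mean, of 0.64 and 0.69 with blockade, -0.78 and -0.21 in Irf4 KO IgG cells, and -0.41 and 0.14 in WT cells. The Irf4 KO IgG array with the lower histone levels, array 1, was also the lower in this list. Whether the histone differences go beyond those of S phase genes was not tested.

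The histone mRNA processing and turnover list had 13 of 19 genes in the fit and none passed, with 5, 6 and 2 of the 13 at an unadjusted p under 0.05 in Irf4 KO IgG against WT, blockade against Irf4 KO IgG and blockade against WT, beside 23.3%, 28.6% and 19% of all probes. Its median fold changes were 0.01, 0.09 and 0.08 in those comparisons. Ncbp2 and Lsm1, a cap-binding protein and a decay factor, had 0.60 (adjusted p 0.0712) and 0.47 (adjusted p 0.0827) for blockade against Irf4 KO IgG. These are the members with the lowest p there. In the same comparison 8 of the 13 were positive and 5 negative, among them Upf1, a helicase of histone mRNA decay, at -0.73 ± 0.23 (adjusted p 0.122). Slbp itself was not in the fit. The list of histone chaperones and of enzymes that acetylate new histones had 18 of 21 genes in the fit, and none passed. At an unadjusted p under 0.05 there were 1, 6 and 5 of the 18, beside the same 23.3%, 28.6% and 19% of all probes, and the medians were 0.15, 0.10 and 0.28. For blockade against Irf4 KO IgG 12 were positive and 6 negative, Atrx, a chromatin remodeler, being lowest at -0.50 (adjusted p 0.199). Asf1b, which hands H3 and H4 to assembly factors, had a fold change of 1.82 ± 0.36 for blockade against Irf4 KO IgG (adjusted p 0.0716), and Hat1, which acetylates new H4, had 0.71 ± 0.13 for blockade against WT (adjusted p 0.0832).

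Replication-independent variant histones, whose mRNAs are mostly polyadenylated and made outside S phase as well, had 9 of 12 genes in the fit. None passed, and 4, 6 and 5 of the 9 had an unadjusted p under 0.05 in the same 3 comparisons. Of all probes, 23.3%, 28.6% and 19% did. H2ax, which is phosphorylated at DNA breaks, read 12.08 and 12.23 with blockade, 11.24 and 11.24 in Irf4 KO IgG cells, and 11.66 and 11.87 in WT cells, and its fold change was 0.91 ± 0.13 for blockade against Irf4 KO IgG (adjusted p 0.0513). Cenpa, the centromeric H3, had 1.26 ± 0.19 (adjusted p 0.0534). H3f3a and H3f3b, which encode the variant H3.3, had 0.06 ± 0.12 and -0.42 ± 0.14. H2aj, an H2A variant, had the highest of the 9, 1.65 ± 0.27 (adjusted p 0.0602), and -0.91 for Irf4 KO IgG against WT, within the range of the replication-dependent H2A probes. Whether the H2aj probe also reads transcripts of those H2A genes was not tested, so its value as a single gene is uncertain. H2az1, which encodes the variant H2A.Z, had 0.68 ± 0.16 (adjusted p 0.0797), and 1.10 ± 0.16 for blockade against WT (adjusted p 0.0541). The median of the 9 was 0.59, against 1.84 for the replication-dependent probes, and the difference between the lists was not tested.

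**Figure D5:**
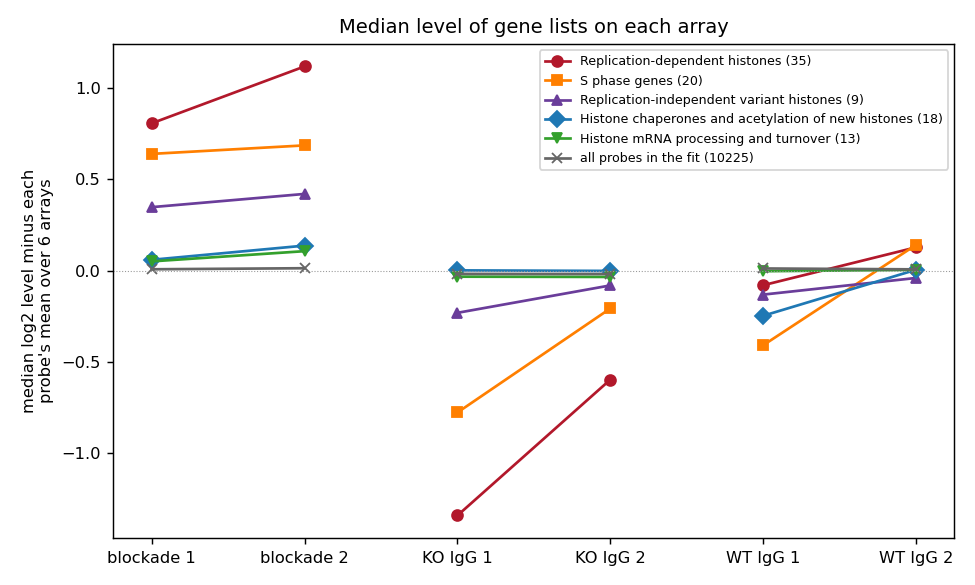
Median log2 level of the histone probes and of 4 gene lists on each array, each probe taken against its own mean over the 6 arrays. Numbers in the legend count probes; the histone and S phase lines are highest on the blockade arrays and lowest on Irf4 KO IgG array 1, while all probes of the fit stay near 0.

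The unscaled signals of markers of other cells also differed between the groups. The B cell list was well above background for 1 and 2 of 7 genes with blockade, 7 and 7 in Irf4 KO IgG cells, and 1 and 2 in WT cells. Its summed intensities were 317 and 355 with blockade, 868 and 4588 in Irf4 KO IgG cells, and 114 and 114 in WT cells. On the same arrays 40.0% and 34.8%, 65.8% and 75.2%, and 37.6% and 40.8% of all probes were well above background. Dim probes as a whole were also brightest on the Irf4 KO IgG arrays, and their part in these marker values was not tested. The list of monocyte, macrophage and neutrophil markers summed to 4270 and 6959 with blockade, 7700 and 65137 in Irf4 KO IgG cells, and 4156 and 5087 in WT cells. Hba-a1, a hemoglobin chain, read 9121 and 5672 with blockade, 1152 and 44583 in Irf4 KO IgG cells, and 127 and 612 in WT cells. The dendritic cell list summed to 7381 and 4773 with blockade, 23905 and 13004 in Irf4 KO IgG cells, and 7570 and 13939 in WT cells. Nearly all of this sum was 1 gene, Siglech, at 7367 and 4738, 23793 and 12858, and 7552 and 13923 on the same arrays. No other gene of the list read above 73.4 on any array. Of the Irf4 KO IgG arrays, array 1 had the lower histone levels. It was also lower in Hba-a1 and in the sums of the B cell and the monocyte, macrophage and neutrophil lists. Most of the latter sum on array 2 was S100a9 (44805) and S100a8 (15377). Lyz2 and Cd14 were lower on array 1 as well, while Csf1r, Itgam and Adgre1 were higher. The T cell sum was also lower on array 1 (189299 against 301139), as was the unscaled median of the 10225 probes (1048 against 1611). In the dendritic cell sum, and in Siglech, array 1 was higher. The part of other cells in the histone differences was not tested.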

How the data were processed

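Per the labels' protocols, the authors labelled cRNA amplified from total RNA with Cy3. The scans were quantified in Agilent Feature Extraction, version 11.0.1.1 per the file headers and 9.1 per the submitters' processing notes. The deposited processed intensity of a spot is linear, had its background subtracted by that software, and carries no scaling between arrays. The series' deposited value table held the same intensity divided by 1 number per array and served as an alternative. Control and outlier spots were left out, spots of a probe averaged, and log2 taken. Probes were named through RefSeq accessions (58.3% of 55371). The 10225 probes with a mean log2 of at least 8 were quantile-normalized together and fitted over all 6 arrays with limma 3.58.1 in R 4.3.3, without a block, and Benjamini-Hochberg adjustment over all of them at 0.05. The fit was tested on simulated data. Over all probes of the fit same-numbered arrays did not deviate together (correlations 0.05, -0.18 and 0.04), so the numbers were not used as pairs, although most histone probes were higher on array 2 in each group. All arrays came from 1 slide and 1 scan.

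The members, the gene lists and the tests were chosen with earlier results of these data known. Values in every array are given for members that passed in any comparison, for the brightest probe and the lowest and highest fold change of Irf4 KO IgG against WT IgG in each class, and for the brightest members outside the fit. Further dim members were named after their values were seen. Alternatives covered other scalings, background correction by normexp, the brightness minimum, blocks and each array left out.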

Additional observations from a re-analysis of the deposited data

How the results depend on the processing

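The direction of the median histone fold change did not turn under any of the 22 alternatives to each comparison: it ran from -3.68 to -0.60 for Irf4 KO IgG against WT, from 1.50 to 4.75 for blockade against Irf4 KO IgG, and from 0.75 to 1.22 for blockade against WT. The number of calls did change. The alternative scalings moved whole arrays: relative to WT, Irf4 KO IgG arrays had an all-probe median of -0.08 when scaled to the 75th percentile, -1.75 when scaled to the median of the array and 0.93 when scaled to the 75th percentile of probes detected on all arrays, and blockade against Irf4 KO IgG 0.01, 1.80 and -1.05. With these 3 scalings, which tested 46 histone probes, 40 (39 lower), 44 (43 lower) and 20 (16 lower) were called for Irf4 KO IgG against WT. The reported fit called 2. Of all 34988 probes, the 3 scalings called 56.3%, 65.6% and 42.1% (9410, 19340 and 267 probes lower). For blockade against Irf4 KO IgG, where the reported fit called 12, they gave 42 (41 higher), 46 (45 higher) and 38 (36 higher). Of all probes they called 56.7%, 64.2% and 44.0% there (9740, 19464 and 369 probes higher). For blockade against WT they called 0 histone probes and 0 of all probes, where the reported fit called 1 histone probe. The medians were -2.01 and -3.68, and 2.96 and 4.75, with the first and second of these scalings. Normexp gave 6, 40 and 0 calls in the 3 comparisons, cyclic loess 1, 5 and 3, and scaling to the median of bright probes 6, 33 and 3, with a blockade against Irf4 KO IgG median of 2.30. A minimum of 7 gave 7 calls for blockade against Irf4 KO IgG and 0 against WT, beside 0.897% and 0.547% of all probes. A minimum of 9 gave 1 for Irf4 KO IgG against WT and 5 for blockade against Irf4 KO IgG, beside 1.18% and 0.224%. With 1 probe a gene, blockade against Irf4 KO IgG gave 6, beside 0.324% of all probes. Fits on the 4 arrays compared gave 0, 0 and 5 calls, beside 0.0587%, 0% and 1.19% of all probes. The slide row as a block left 1, 0 and 0, beside 0.919%, 0% and 0.264%. With the replicate number as a block, calls were 2, 16 and 2, beside 0.665%, 0.587% and 0.567%. Whether same-numbered arrays share an experiment is not stated in the labels. Fewer arrays lower the residual degrees of freedom, and otherwise the cause was not tested.

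Leaving out single arrays gave 0 to 16 calls with medians of -1.43 to -0.60 for Irf4 KO IgG against WT, 0 to 31 calls with medians of 1.50 to 2.24 for blockade against Irf4 KO IgG, and 0 to 5 for blockade against WT. A group left with 1 array was taken to vary like the others. Quantiles set without the histone probes, an alternative chosen after seeing the data, left the calls at 2, 12 and 1. Among single members, H3c11 at 0.00 in Irf4 KO IgG against WT was negative under these alternatives: -0.77 by the 75th percentile, -2.44 by the median of the array, -0.35 after normexp, -0.11 with a minimum of 7, -0.0052 with 1 probe a gene, -0.0051 on 4 arrays, and -0.0075 with quantiles set without histones. It ran from -0.74 to 0.72 with an array left out. In that comparison H3c4 ran from -0.11 to 0.081 and H2ac13 from -0.89 to 0.042 with an array left out, and H4c3 ran from -0.28 to 0.76 in blockade against WT. No other named member turned. With 2 arrays a group, and dim probes brighter on the Irf4 KO IgG arrays, members near background cannot be compared.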
